A study of Mus musculus with 4 samples.

Results

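Translation initiation factors are the proteins that bring the initiator tRNA, the small ribosomal subunit and an mRNA together at a start codon. They work in steps: eIF2 carries the initiator tRNA, eIF3 and the small factors eIF1, eIF1A and eIF5 hold the small subunit ready for scanning, the eIF4F complex brings in the capped mRNA, and eIF5B joins the large subunit. Protein synthesis is kept low and tightly controlled in hematopoietic stem cells, and the best known controls act on this machinery, through phosphorylation of eIF2, which blocks its exchange factor eIF2B, and through the eIF4E-binding proteins, which keep the cap-binding protein eIF4E from eIF4G. The genes described here are those whose symbol starts with Eif1 to Eif6 and whose mean was at least 10 normalized counts over the 4 libraries, which left 49 genes of the 18598 in the deposited table. A further 2 matching pseudogenes fell below that mean, and 7 matching symbols, the eIF2alpha kinases *Eif2ak1*, *Eif2ak2*, *Eif2ak3* and *Eif2ak4* and the eIF2 subunit genes *Eif2s1*, *Eif2s3x* and *Eif2s3y*, were not part of the set. Of the 49 genes, 47 are protein coding and 2 are processed pseudogenes.

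The RNA came from LSK cells, the lineage-negative, SCA-1-positive and c-KIT-positive bone marrow cells that hold hematopoietic stem and progenitor cells, of C57BL/6 mice labelled as about 3 months old. There were 2 libraries from *Bptf*-cKO mice, labelled *Bptf* -/-, and 2 from control mice, and each library pooled the cells of 5 mice. By the study's account the knockout mice carried floxed *Bptf* alleles with *Mx1*-cre, the controls carried the floxed alleles, both received pIpC, an interferon inducer that switches *Mx1*-cre on, and cells were sorted 10 days after induction. *Mx1*-cre acts in other interferon-responsive cells as well, and with controls that lack the cre the loss of *Bptf* and the presence of cre cannot be told apart. BPTF is the largest subunit of the NURF chromatin remodeling complex, and the deletion takes out exon 2 of its gene, so counts over the whole gene include exons that remain. Nothing in the labels says that the mice of replicates 1 and 2 were processed apart, so the p-values measure only the spread between these libraries. The replicate number did go with a measured trait in both groups, described in the last paragraph. The p-values given for single genes do not use that number, and more genes were called with it as a block.

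The deposited values are gene counts divided by a size factor for each library, called normalized counts here, and whole reads could be recovered from them, 14091054 to 30134742 per library. All 9 LSK markers examined were present, *Kit* at 13634 to 17051 normalized counts, and their sum was 58238 and 48736 in control and 44594 and 40723 in *Bptf*-cKO. *Bptf* itself had 5520 and 5850 normalized counts in the control libraries and 3398 and 3320 in the *Bptf*-cKO libraries. It fell by 0.76 on the log2 scale (standard error 0.090, limma adjusted p = 0.0439), and the call was lost when any one library was left out, at adjusted p values of 0.0647 without control replicate 1, 0.0987 without control replicate 2, 0.227 without *Bptf*-cKO replicate 1 and 0.316 without *Bptf*-cKO replicate 2. Summed over marker lists, 6 immediate-early and heat-shock genes that respond to handling stood at 44478 and 105180 normalized counts in control against 15161 and 17576 in *Bptf*-cKO. The list holds *Fos* and *Jun*, which the study reports as lower in knockout LSK cells, with less accessible promoter DNA at *Fos*. Whether handling played a part in their levels was not tested. The 6 erythroid markers were at 963 and 1009 against 206 and 295. The 6 granulocyte markers were at 71414 and 10844 in control and 45329 and 36435 in *Bptf*-cKO, the 5 megakaryocyte markers at 6675 and 5444 against 4830 and 5002, and 2 of the 6 T cell markers were listed. The 6 B cell markers were at 5926 and 1581 in control and 3386 and 1984 in *Bptf*-cKO. The 6 monocyte and macrophage markers were at 7308 and 3702 against 3950 and 3915, and the 4 endothelial markers at 3125 and 2273 against 2877 and 2884. The part of these differences in the results below was not tested, and in sorted bulk RNA fewer cells of a type and less RNA per cell cannot be told apart.

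As a family, the initiation factor genes sat slightly above the control level in *Bptf*-cKO LSK cells, with small differences gene by gene. Together they took 1.25% and 1.33% of the reads in the control libraries and 1.40% and 1.39% in the *Bptf*-cKO libraries. Their summed level was 241722 and 260675 normalized counts in control and 274821 and 276713 in *Bptf*-cKO, a ratio of 1.10. *Eif3c* and *Eif5a* made up 46% of that summed difference, and the other 47 genes together had a ratio of 1.06. Both *Bptf*-cKO libraries were above both controls, although the control libraries lay further from each other than the knockout libraries did.

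Gene by gene, 1 of the 49 rose and 0 fell past the threshold of 0.05 on the adjusted p (limma on log2 of the normalized count plus 1, two-sided, adjusted over all 14858 genes averaging 10 or more). Over all tested genes 0.37% were called higher and 0.37% lower of them, and 1 of 49 genes is 2.04%. At an unadjusted p under 0.05, 7 initiation factor genes were higher and 1 was lower, where all tested genes had 6.79% higher and 8.96% lower. The DESeq2 Wald test on the recovered reads called 3 of the 49 higher, *Eif4ebp1*, *Eif3c* and *Eif5a*, and 0 lower, against 2.15% higher and 3.37% lower over all tested genes, and edgeR's quasi-likelihood test called *Eif4ebp1* higher and 0 lower, against 0.33% higher and 0.303% lower. None of these fits used the replicate number. With it as a block, described in the last paragraph, limma called 7 of the 49 higher and 1 lower, against 6.03% and 8.36% of all tested genes.

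The direction was more uniform than the size. The log2 fold change was above 0 for 40 of the 49 genes (81.6%), against 50.2% of all tested genes and 58.7% of the 5245 genes averaging 1000 or more. The median of the 49 was 0.11 on the log2 scale, against 0.0010 over all tested genes and 0.041 over the abundant ones. Both *Bptf*-cKO libraries were above both controls for 20 genes, or 40.8%, with 23.2% of all tested genes in that position, and below both for 3 genes, or 6.12%, with 23.8% of all tested genes. The remaining 26 genes overlapped between the groups. Of the 5245 abundant genes, 29.8% had both *Bptf*-cKO libraries above both controls and 18.2% had them below.

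These family values leaned on control replicate 1, in which 39 of the 49 genes were lower than in control replicate 2. Of all 14858 tested genes, 7474 were lower there. The median difference of the 49 genes was 0.14 within the replicate 1 pair of libraries and 0.064 within the replicate 2 pair, with 41 and 33 of the genes above 0. Of all tested genes, 7370 and 7504 were above 0 in these pairs. Without control replicate 1 the median over the 49 genes was 0.052 and 32 genes were above 0, and quantile normalization gave a median of 0.060. Leaving out a library raises the count of genes whose groups do not overlap for any gene set, so each count has its own reference. Without control replicate 1, the *Bptf*-cKO libraries lay above the control left for 25 of the 49 genes (51.0%, against 38.3% of all tested genes) and below it for 13 (26.5%, against 37.9%). Without control replicate 2, where the median was 0.15, they lay above it for 38 (77.6%, against 37.9%) and below it for 6 (12.2%, against 38.8%). Without *Bptf*-cKO replicate 1 the knockout library left was above both controls for 29 genes (59.2%, against 36.2%). It was below both for 5 genes (10.2%, against 36.1%). Without *Bptf*-cKO replicate 2 the knockout library left was above both for 24 genes (49%, against 34.1%). It was below both for 4 (8.16%, against 34.4%).

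**Figure D1:**
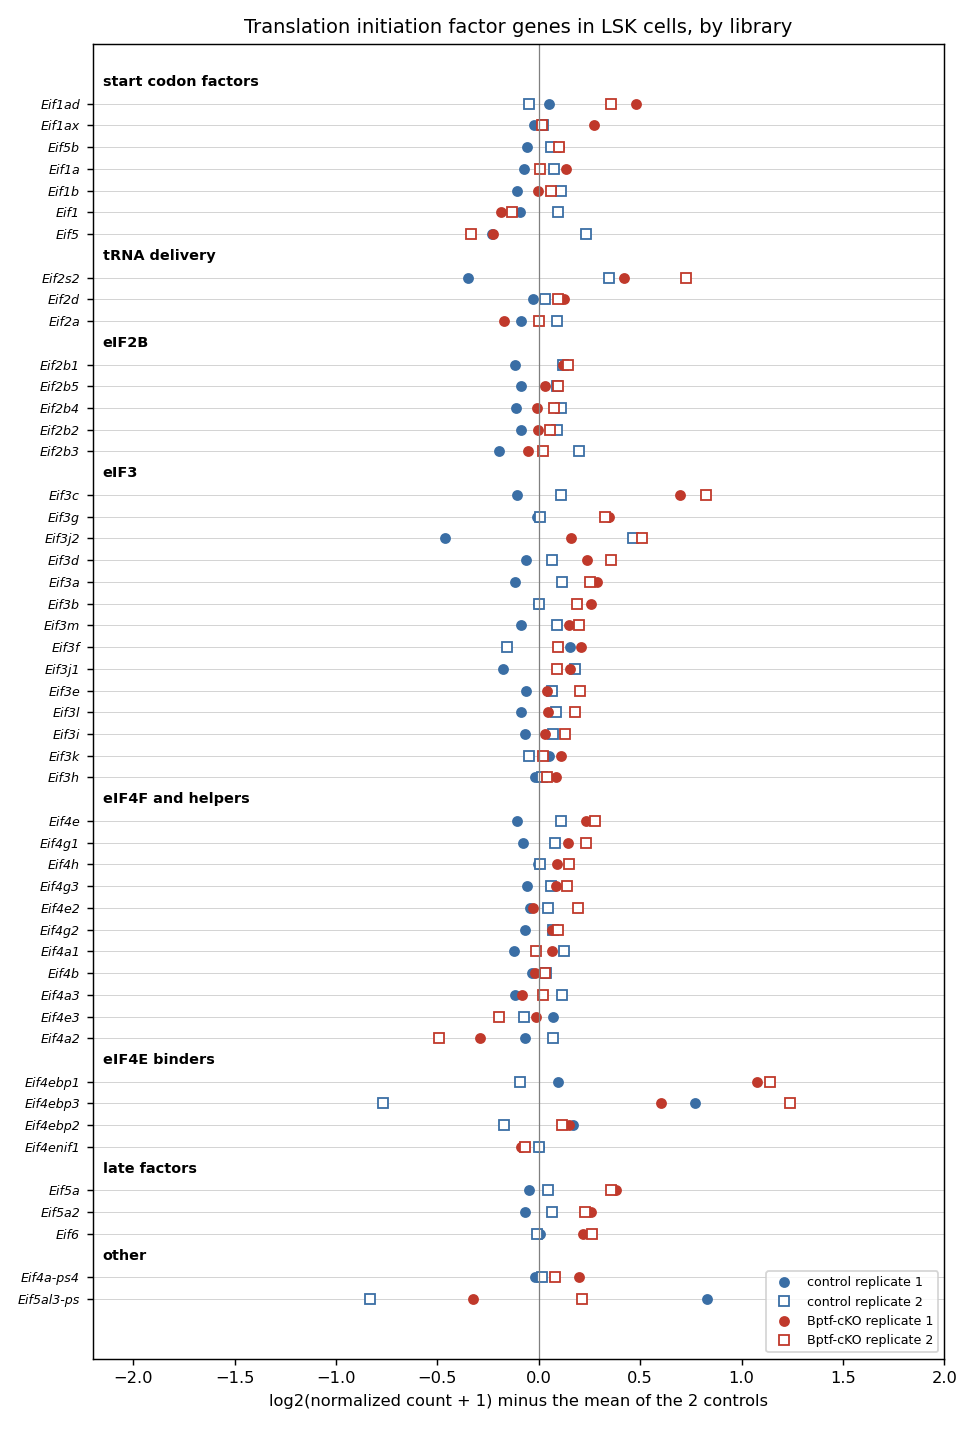
Level of each of the 49 initiation factor genes in every library, as log2 of the normalized count plus 1 minus the mean of the 2 control libraries, with genes grouped by role and circles and squares marking replicates 1 and 2. The red *Bptf*-cKO points of *Eif4ebp1* and *Eif3c* lie clear of the blue control points, while the red and blue points overlap for 26 of the 49 genes, the 5 eIF2B genes among them.

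**Figure D2:**
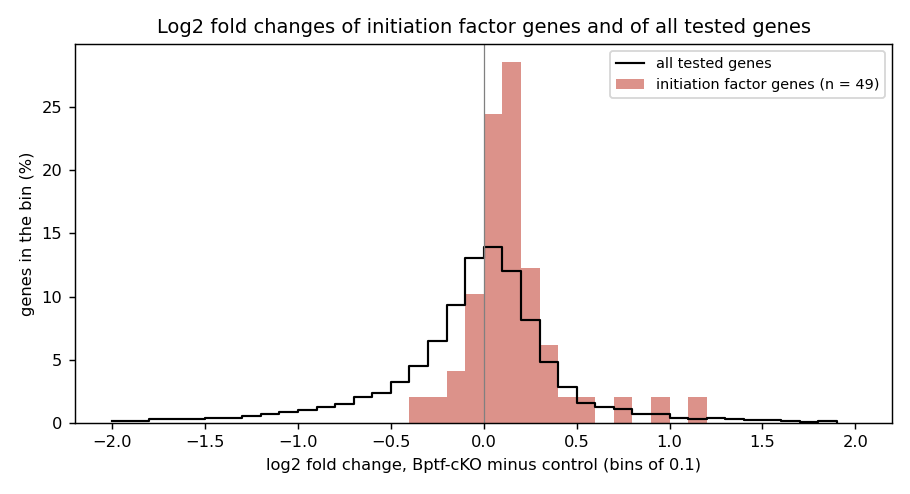
Distribution of log2 fold changes, *Bptf*-cKO minus control, in bins of 0.1 for the 49 initiation factor genes (bars, percent of these genes) and for all 14858 tested genes (line, percent of tested genes). The bars are shifted to the right of the line, with 40 of 49 genes above 0, and few of them lie beyond 0.5.

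The eIF4E-binding proteins are small repressors that occupy the surface of eIF4E that eIF4G needs, until mTORC1 phosphorylates them. *Eif4ebp1*, on chromosome 8 from 27260329 to 27276674 on the plus strand of GRCm38 (GENCODE vM21), had 1002 and 880 normalized counts in the control libraries and 1982 and 2070 in the *Bptf*-cKO libraries. Both knockout libraries were about at the same level and well above either control. The gene, which is also known as a target of the stress transcription factor ATF4, rose by 1.11 on the log2 scale (standard error 0.11, 95% interval 0.82 to 1.40, limma adjusted p = 0.0332), 2.15-fold on the linear scale. Between the replicate 1 libraries the gap was 0.98, and between the replicate 2 libraries 1.23. It ranked 401 by size of rise and 66 by p among the 14858 tested genes. The call rested on each of 3 libraries, with adjusted p values of 0.0692 without control replicate 2, 0.172 without *Bptf*-cKO replicate 1 and 0.266 without *Bptf*-cKO replicate 2, while the log2 fold change was 1.01 or more under each of the 16 alternative fits.

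None of the other 3 genes of this group was called. *Eif4ebp2*, the most abundant of the 3 binding protein genes, had 9064 and 7168 normalized counts in control and 8936 and 8735 in *Bptf*-cKO, so the groups overlapped, and its log2 fold change of 0.13 had a 95% interval of -0.21 to 0.47. *Eif4ebp3* was barely detected, with 18 and 3 reads in control and 19 and 14 in *Bptf*-cKO, too few for a difference to be detectable at this depth. Of its 50-base windows 65.5% are shared with a read-through transcript annotated over it. *Eif4enif1*, which encodes the eIF4E transporter 4E-T, had 2835 and 2830 normalized counts in control and 2666 and 2702 in *Bptf*-cKO. Both knockout libraries were lower, but the log2 fold change was only -0.078 (95% interval -0.30 to 0.15, limma adjusted p = 0.741).

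Levels of different genes can be compared only per length, here as normalized counts per kb of the longest annotated transcript. On that scale the *Eif4ebp1* level was 1.85 and 1.40 times the *Eif4e* level in the control libraries and 2.88 and 2.92 times in the *Bptf*-cKO libraries. Against *Eif4ebp2* it was 0.320 and 0.356 times in control and 0.642 and 0.686 times in *Bptf*-cKO. These are ratios within a library, which no scaling between libraries can change, and the groups did not overlap in either. An exact permutation test, two-sided, cannot go below 0.333 with 2 libraries on each side.

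**Figure D3:**
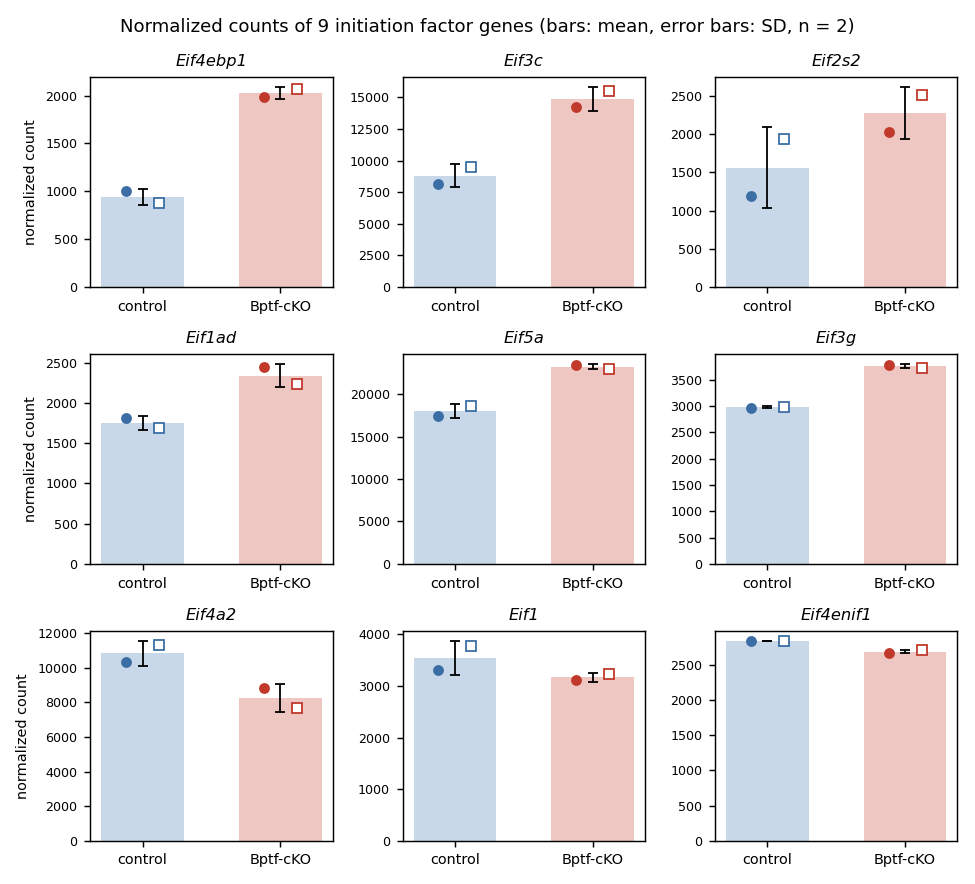
Normalized counts of 9 initiation factor genes in control and *Bptf*-cKO LSK cells, with bars for the mean, error bars for the SD (n = 2 libraries) and points for the libraries, circles for replicate 1 and squares for replicate 2. *Eif4ebp1* about doubles, from 880 to 1002 in control to 1982 to 2070 in *Bptf*-cKO, *Eif3c* goes from 8154 and 9483 to 14229 and 15547, and *Eif4a2*, *Eif1* and *Eif4enif1* are lower in both *Bptf*-cKO libraries.

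eIF3 is the scaffold of the small ribosomal subunit before it meets the mRNA. Of its 14 genes tested, 7 had both *Bptf*-cKO libraries above both controls (50%, against 23.2% of all tested genes) and 0 had them below (against 23.8%). All 14 had a log2 fold change above 0, against 50.2% of all tested genes, and 0 passed the adjusted threshold in limma. Their median log2 fold change was 0.16, and their summed level, 70123 and 73826 normalized counts in control and 85531 and 86863 in *Bptf*-cKO, gave 57.9% of the summed difference of the whole family. At an unadjusted p under 0.05 in limma 3 of them were higher, *Eif3c*, *Eif3g* and *Eif3d*, where all tested genes had 6.79% higher.

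*Eif3c*, on chromosome 7 from 126546455 to 126566411 on the minus strand, encodes a core subunit. It had 8154 and 9483 normalized counts in control and 14229 and 15547 in *Bptf*-cKO. Every knockout value was at least 1.5 times the higher control, with similar gaps in both pairs, 0.80 and 0.71 on the log2 scale. The log2 fold change was 0.76 (standard error 0.12, 95% interval 0.47 to 1.05, limma adjusted p = 0.0679), so it missed the threshold in limma, while DESeq2 gave an adjusted p of 1.24e-05. A pseudogene, *Gm11224*, holds 7.65% of the gene's 50-base windows, and it was listed at 0.775 to 4.23 normalized counts.

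Of the other subunits that stood apart, *Eif3g* had 2959 and 2985 normalized counts in control and 3783 and 3723 in *Bptf*-cKO, with little spread in either group. Its log2 fold change was 0.34 (95% interval 0.12 to 0.56, limma adjusted p = 0.179). *Eif3d*, whose protein can itself bind the cap of some mRNAs, had 2994 and 3269 in control and 3684 and 4001 in *Bptf*-cKO, a difference of 0.30 on the log2 scale (limma adjusted p = 0.268). An antisense gene, *Gm17638*, lies over 43.3% of its merged exons and had 28.2 to 37.0 normalized counts. *Eif3a*, the largest subunit, had 10137 and 11903 in control and 13389 and 13074 in *Bptf*-cKO, a difference of 0.27 on the log2 scale (limma adjusted p = 0.343). *Eif3b* had 9394 and 9437 in control and 11266 and 10725 in *Bptf*-cKO, a difference of 0.22 on the log2 scale (limma adjusted p = 0.317). *Eif3m* and *Eif3h* also had both knockout libraries above both controls, with log2 fold changes of 0.17 and 0.061. For *Eif3e*, *Eif3f*, *Eif3i*, *Eif3k*, *Eif3l* and the near-identical pair *Eif3j1* and *Eif3j2*, which share most of the shorter gene's sequence, the groups overlapped.

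Sorted by the parts of the complex, the genes of subunits a, b, g and i had a median log2 fold change of 0.25, those of f, h and m 0.15, and those of c, d, e, k and l 0.12. Per kb, the 12 subunit genes other than *Eif3j1* and *Eif3j2* lay within a narrow band in control, from 1649 for *Eif3d* to 4306 for *Eif3k*, while *Eif3j1* was at 95.1. Of the 50-base windows of *Eif3j1*, 39.8% also occur in other annotated transcripts, mainly *Eif3j2*, so its reads can be split or dropped. Its value is also divided by a long transcript of 5413 bases. *Eif3c* was at 2607 normalized counts per kb in control, toward the lower end of the band, and at 4401 in *Bptf*-cKO, next to *Eif3k* at 4498. Relative to *Eif3a*, its level was 1.22 and 1.21 in control and 1.61 and 1.80 in *Bptf*-cKO, and relative to *Eif3e* 0.673 and 0.716 in control and 1.09 and 1.07 in *Bptf*-cKO. In each of these ratios both *Bptf*-cKO libraries were above both controls.

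**Figure D4:**
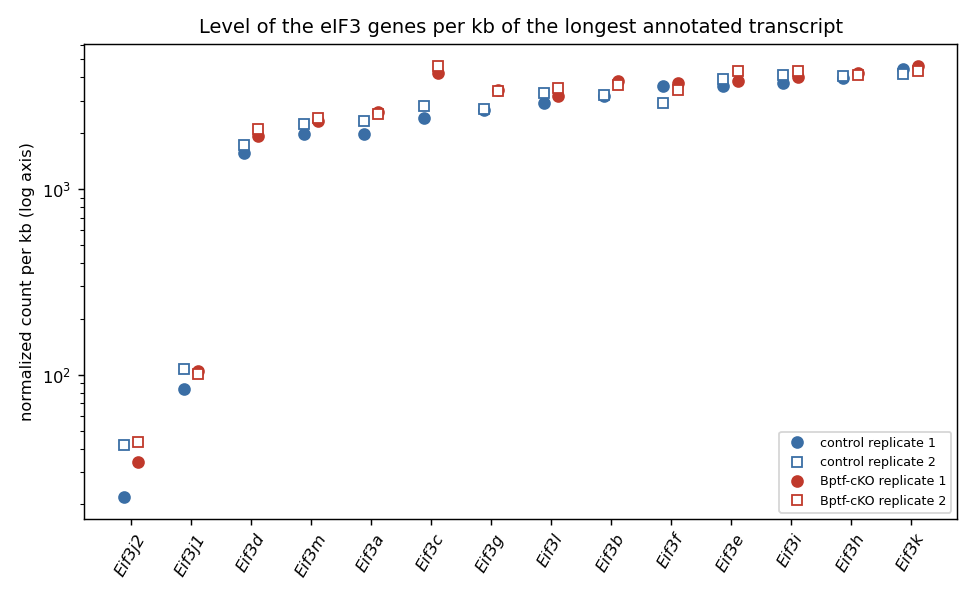
Level of the 14 eIF3 genes in every library as normalized counts per kb of the longest annotated transcript, on a log axis, ordered by the control level. *Eif3c* moves from 2607 per kb in control to 4401 in *Bptf*-cKO, the widest gap between the groups on this axis. *Eif3j1* and *Eif3j2*, which share sequence so that reads can be split or dropped, lie far below the rest.

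The eIF4F complex joins the cap-binding protein eIF4E, the scaffold eIF4G and the helicase eIF4A. Of the 11 genes of eIF4F and its helpers 0 were called. Both *Bptf*-cKO libraries were above both controls for 4 (36.4%, against 23.2% of all tested genes) and below for 1 (9.09%, against 23.8%). *Eif4a1* and *Eif4a2* encode closely related forms of the helicase. *Eif4a1* had 12092 and 14338 normalized counts in control and 13768 and 13023 in *Bptf*-cKO, with overlapping groups and a log2 fold change of 0.024 (95% interval -0.27 to 0.32). *Eif4a2* had 10323 and 11337 in control and 8844 and 7697 in *Bptf*-cKO, both knockout libraries below both controls. Its log2 fold change of -0.39 (95% interval -0.68 to -0.10, limma adjusted p = 0.209) was the most negative of the 49 genes, at -0.22 between the replicate 1 libraries and -0.56 between the replicate 2 libraries.

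Per kb, *Eif4a2* stood at 0.559 and 0.518 of the *Eif4a1* level in the control libraries and at 0.421 and 0.387 in the *Bptf*-cKO libraries, and the groups did not overlap. Of the 50-base windows of *Eif4a1*, 65.3% also occur in other annotated transcripts, mainly the pseudogene *Eif4a-ps4*, against 11.5% for *Eif4a2*, so reads of *Eif4a1* can be split or dropped depending on the counting rule. *Eif4a-ps4* had 354 and 363 normalized counts in control and 411 and 380 in *Bptf*-cKO. *Eif4a3*, the helicase of the exon junction complex, had 2989 and 3506 in control and 3052 and 3282 in *Bptf*-cKO, and its log2 fold change of -0.033 turned to 0.019 when libraries were recentred on their medians.

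Among the cap-binding proteins, *Eif4e* had 1356 and 1576 normalized counts in control and 1720 and 1771 in *Bptf*-cKO. Both knockout libraries were higher, with a log2 fold change of 0.26 (95% interval -0.039 to 0.55, limma adjusted p = 0.381). *Eif4e2*, whose protein binds caps without recruiting eIF4G, had 1791 and 1907 in control and 1810 and 2112 in *Bptf*-cKO, and *Eif4e3* had 871 and 790 in control and 823 and 725 in *Bptf*-cKO, with overlapping groups in both. Of the scaffolds, *Eif4g1* had 14320 and 15962 in control and 16695 and 17743 in *Bptf*-cKO, a difference of 0.19 on the log2 scale (limma adjusted p = 0.465). *Eif4g3* had 5072 and 5501 in control and 5596 and 5812 in *Bptf*-cKO, a difference of 0.11 on the log2 scale (limma adjusted p = 0.639). *Eif4g2*, which encodes a scaffold without an eIF4E-binding site and had the highest normalized counts of the family, was at 28928 and 31780 in control and 31721 and 32357 in *Bptf*-cKO, where the groups overlapped. *Eif4b* and *Eif4h*, cofactors of the helicase, had log2 fold changes of 0.0065 and 0.12.

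The late factors are *Eif5a*, *Eif5a2* and *Eif6*. All 3 had both *Bptf*-cKO libraries above both controls (100%, against 23.2% of all tested genes), and 0 were called in limma. *Eif5a* encodes the hypusine-carrying factor that helps ribosomes through elongation and termination, and per kb it had the highest level of the 47 protein-coding genes, 12530 in control. It had 17419 and 18580 normalized counts in control and 23447 and 22998 in *Bptf*-cKO, a log2 fold change of 0.37 (standard error 0.095, 95% interval 0.13 to 0.61, limma adjusted p = 0.175). DESeq2 gave it an adjusted p of 0.0250. *Eif6*, which keeps the ribosomal subunits apart, had 2001 and 1983 in control and 2321 and 2392 in *Bptf*-cKO, a difference of 0.24 on the log2 scale (limma adjusted p = 0.302). *Eif5a2* was far less abundant, at 202 and 222 in control and 253 and 248 in *Bptf*-cKO, with the same log2 fold change of 0.24 and a 95% interval of -0.20 to 0.69.

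The genes grouped under scanning and start codon choice went both ways. *Eif1ad*, placed in this group only by its name, for a domain like that of eIF1A, had 1809 and 1689 normalized counts in control and 2440 and 2235 in *Bptf*-cKO. Both knockout libraries were above both controls, with a log2 fold change of 0.42 (95% interval 0.15 to 0.68, limma adjusted p = 0.163). The gene shares 15.3% of its merged exons with *Banf1* on the opposite strand, which had 3402 and 3807 in control and 4281 and 4842 in *Bptf*-cKO, and whether reads were counted by strand is not given in the sources used here. *Eif1*, the gatekeeper against wrong start codons, had 3311 and 3777 in control and 3107 and 3231 in *Bptf*-cKO, a log2 fold change of -0.16 (95% interval -0.43 to 0.11, limma adjusted p = 0.544). *Eif5*, which triggers GTP hydrolysis on eIF2, had 8274 and 11423 in control and 8312 and 7711 in *Bptf*-cKO, with control replicate 2 above the other libraries. Its log2 fold change was -0.28, at 0.0068 between the replicate 1 libraries and -0.57 between the replicate 2 libraries. *Eif5b* had a log2 fold change of 0.10 with both knockout libraries above both controls, and *Eif1a*, *Eif1b* and *Eif1ax* had overlapping groups with log2 fold changes from 0.026 to 0.14. *Eif1ax* is X-linked, and *Xist*, the RNA that silences one X chromosome in females, was at 0.775 and 3.25 normalized counts in the replicate 1 libraries and 15675 and 11843 in the replicate 2 libraries of control and *Bptf*-cKO, high in both replicate 2 libraries and near 0 in both replicate 1 libraries.

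eIF2 and its exchange factor eIF2B form the step that stress kinases control. *Eif2s2*, the gene of the beta subunit of eIF2, had 1192 and 1933 normalized counts in control and 2031 and 2514 in *Bptf*-cKO, above both controls in both knockout libraries, with a log2 fold change of 0.57 and a wide 95% interval of -0.063 to 1.21 (limma adjusted p = 0.363). The control libraries differed from each other by more than control replicate 2 differed from *Bptf*-cKO replicate 1, and the log2 fold change was 0.22 without control replicate 1 and 0.92 without control replicate 2. Between the replicate 1 libraries the gap was 0.77, and between the replicate 2 libraries 0.38. *Eif2d* and *Eif2a*, alternative carriers of initiator tRNA, had log2 fold changes of 0.11 and -0.084.

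The 5 eIF2B genes had the smallest median log2 fold change of the groups by role, 0.033, with overlapping libraries for every one. *Eif2b5*, the catalytic subunit, had 1883 and 2132 normalized counts in control and 2045 and 2140 in *Bptf*-cKO, a log2 fold change of 0.062 (95% interval -0.21 to 0.34). *Eif2b1* had 960 and 1132 in control and 1132 and 1151 in *Bptf*-cKO, the largest log2 fold change of the 5, at 0.13. *Eif2b2* had 1159 and 1308 in control and 1227 and 1278 in *Bptf*-cKO, and *Eif2b4* had 812 and 947 in control and 872 and 923 in *Bptf*-cKO. *Eif2b3* had 442 and 581 in control and 489 and 514 in *Bptf*-cKO, and its log2 fold change of -0.016 turned to 0.036 when libraries were recentred on their medians. In all 5 genes control replicate 1 was the lowest library. The 95% interval of each of the 5 genes held 0. The lowest bound was -0.46, for *Eif2b3*, and the highest was 0.45, for *Eif2b1*. A difference inside a gene's own interval is not excluded by these libraries.

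Promoter sequences were examined for letters that known regulators read. RefSeq windows on GRCm38.p6, from 250 bases before to 50 bases after an annotated start, matched 36 of the 49 genes by symbol. The 13 without a window were *Eif1a*, *Eif2b3*, *Eif3e*, *Eif3h*, *Eif3i*, *Eif3j2*, *Eif4a-ps4*, *Eif4e3*, *Eif4ebp1*, *Eif4ebp3*, *Eif4g2*, *Eif5al3-ps* and *Eif6*. The E box CACGTG, which reads the same on both strands and is bound by MYC and its relatives, was in a window of 10 of the 36 genes (27.8%), namely *Eif1b*, *Eif3a*, *Eif3f*, *Eif3k*, *Eif4a1*, *Eif4e*, *Eif4g1*, *Eif4h*, *Eif5a* and *Eif5a2*. It was in a window of 8.09% of all genes with windows and of 11.7% of the tested genes with windows. TGATGNAA on either strand, the core letters of the C/EBP-ATF response element that ATF4 reads, was in a window of 0 of the 36 genes, and in 4.51% of all genes and 2.76% of the tested genes. Neither count says that a factor binds.

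The E boxes that lie before an annotated start and outside annotated exons are printed with 27 bases on each side, 5′ to 3′ on the strand of the gene, with the E box in capitals. They are shown as examples of the one searched motif that was found in these windows, which the other 26 genes with a window lack. Those of *Eif5a* and *Eif4g1* lie inside the annotated span of the gene, before a start further downstream.
Eif5a, chr11:69921428-69921487, minus strand: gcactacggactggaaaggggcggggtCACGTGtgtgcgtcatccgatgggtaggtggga
Eif5a2, chr3:28781133-28781192, plus strand: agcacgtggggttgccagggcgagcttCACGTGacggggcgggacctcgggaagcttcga
Eif4g1, chr16:20672646-20672705, plus strand: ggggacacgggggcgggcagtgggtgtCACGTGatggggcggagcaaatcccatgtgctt
Eif4a1, chr11:69672580-69672639, minus strand: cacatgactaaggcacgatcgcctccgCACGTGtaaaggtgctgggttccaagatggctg
Eif3f, chr7:108934320-108934379, plus strand: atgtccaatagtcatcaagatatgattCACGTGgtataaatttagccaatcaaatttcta
Eif3k, chr7:28981900-28981959, minus strand: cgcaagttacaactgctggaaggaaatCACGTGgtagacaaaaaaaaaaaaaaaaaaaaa
The log2 fold changes of these 6 genes were 0.37, 0.24, 0.19, 0.024, 0.15 and 0.063 in the order printed, none of them called in limma. In *Eif5a2* a second E box lies just upstream and is visible in lower case near the left end of its line.

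Other genes of translation were taken from lists by function. Of 13 tested elongation and termination factor genes 0 were called in limma in either direction. Both *Bptf*-cKO libraries were above both controls for 5 (38.5%, against 23.2% of all tested genes) and below for 1 (7.69%, against 23.8%). The median log2 fold change of the 13 genes was 0.099. The highest value was that of *Eef2*, the translocation factor, which went from 81835 and 80010 normalized counts to 97727 and 109444, a difference of 0.35 on the log2 scale (limma adjusted p = 0.257). *Gspt2*, a release factor paralog, went the other way, from 269.7 and 239.8 to 98.8 and 100.2, a difference of -1.35 on the log2 scale (limma adjusted p = 0.0673). Among 24 other regulators of initiation 0 were called, with a median of 0.065. *Larp1*, which binds the mRNAs of ribosomal proteins and translation factors, went from 7474 and 7222 to 10078 and 10197, a difference of 0.46 on the log2 scale (limma adjusted p = 0.0964). *Pdcd4*, an inhibitor of eIF4A, went from 4135 and 3193 to 2390 and 2342, a difference of -0.62 on the log2 scale (limma adjusted p = 0.145). DESeq2 called *Gspt2* and *Pdcd4* lower and *Larp1* higher, at adjusted p values of 3.45e-04, 0.0109 and 0.00137. Over all tested genes DESeq2 called 2.15% higher and 3.37% lower. Of 9 mitochondrial translation factor genes 0 were called by limma or DESeq2, and their log2 fold changes ran from -0.29 for *Mtrf1* to 0.18 for *Gfm1*. At an unadjusted p under 0.05, limma had 2 higher and 1 lower in the elongation and termination list, 4 higher and 1 lower among the other regulators and 0 in the mitochondrial list. All tested genes had 6.79% higher and 8.96% lower at that cutoff.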

How the data were processed

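RNA was taken from sorted LSK cells, 2 control and 2 *Bptf*-cKO libraries, each from 5 mice. The deposited values are a signal in normalized counts: the authors divided gene counts by a size factor per library, and the submitters' processing notes name HISAT2, featureCounts and DESeq2 with the builds GRCm38 and mm10. Versions and strand setting are not given in the sources used here. Columns with the authors' own comparison (mean, fold change, standard error, statistic and p-values) were not used.

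Dividing by the value of 1 read gave whole reads for 100.0% of values (tolerance 0.001), with 14091054 to 30134742 reads per library. Precision is limited by 2 libraries per group. The main test was limma 3.58.1 (R 4.3.3), two-sided, on log2(normalized count + 1) with the trend option, for 14858 genes averaging 10 or more, with Benjamini-Hochberg adjustment and a threshold of 0.05. Fold changes on this scale understate changes of low genes. Alternatives were edgeR 4.0.16 and DESeq2 1.42.0 on the recovered reads, other pseudocounts, filters and scalings, a replicate block, and leaving out each library. The scripts were tested on simulated data. Lengths, coordinates and shared 50-base windows came from GENCODE vM21 on GRCm38, and promoter windows from RefSeq on GRCm38.p6.

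The genes and lists were chosen with earlier results of these data known. By the rule for named genes, values in every library were given for 28 of them: each gene called, the 10 with the smallest unadjusted p, the 5 largest rises and 5 largest falls with a mean of at least 100 and groups that do not overlap, and all genes of eIF2B, eIF4A, eIF4E, eIF4G and the eIF4E binders. From the other lists the largest rise and the largest fall were named. Further genes were named with values after these were seen. A search for genes with a pattern like that of *Eif4ebp1* was planned and not made, because a correlation over 4 libraries is too short.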

Additional observations from a re-analysis of the deposited data

How the results depend on the processing

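Of 446 values of the 28 named genes under 16 alternative fits, 410 kept their direction and side of the threshold, 16 passed it newly, 4 no longer passed it and 16 turned. The count of initiation factor genes called higher was 3 with DESeq2, 0 in limma without the trend, where *Eif4ebp1* had an adjusted p of 0.143, and 0 to 1 when 1 library was left out. DESeq2 called 1 elongation or termination gene lower, and 1 of the other regulators higher and 1 lower. Over all tested genes it called 2.15% higher and 3.37% lower. The log2 fold change of *Bptf* kept its sign but missed the threshold in edgeR with TMM factors at -0.76 (adjusted p = 0.0531), in edgeR with DESeq2 size factors at -0.76 (0.0513), after recentring at -0.71 (0.0547) and without the trend at -0.76 (0.178), and ran from -0.80 to -0.72 with 1 library left out. The median over the 49 genes ran from 0.052 to 0.15 with 1 library left out. With 1 library left out, genes whose *Bptf*-cKO libraries lay above the controls numbered 24 to 38 (34.1% to 38.3% of all tested genes) and below them 4 to 13 (34.4% to 38.8%), and the latter was 5 under quantile normalization (22%). Recentring turned *Eif2b3* to 0.036 and *Eif4a3* to 0.019, and quantile normalization turned *Eif2b3* to 0.038, while recentring moved the median of all tested genes to 0.052. Over the fits with 1 library left out, *Eif2b2* ran from -0.063 to 0.11, *Eif2b3* from -0.21 to 0.18, *Eif2b4* from -0.077 to 0.14, *Eif2b5* from -0.027 to 0.15, *Eif4a1* from -0.099 to 0.15, *Eif4a3* from -0.15 to 0.082, *Eif4e2* from -0.030 to 0.19 and *Eif4ebp2* from -0.037 to 0.30. Where a fit left 1 library in a group, that library was assumed to vary like the others. The causes of these shifts were not tested.

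The labels number the replicates 1 and 2 in both groups, but the labels do not say that a number marks a shared batch. *Xist* was at 0.775 and 3.25 normalized counts in the replicate 1 libraries and at 15675 and 11843 in the replicate 2 libraries, so the number goes with a measured trait in both groups. Deviations of same-numbered libraries from their group means had a correlation of 0.45 over the tested genes, 0.64 over the 10815 genes averaging 100 or more, -0.39 over the 49 genes and 0.41 over the 46 of them averaging 100 or more. With the replicate number as a block, limma and edgeR each called 7 initiation factor genes higher, *Eif1ad*, *Eif2s2*, *Eif3c*, *Eif3d*, *Eif3g*, *Eif4ebp1* and *Eif5a*, and 1 lower, *Eif4a2*, where limma with the block called 6.03% of all tested genes higher and 8.36% lower. With the block, limma called 1 elongation or termination gene higher and 1 lower, and edgeR called 2 higher and 1 lower. Among the other regulators each fit called 3 higher and 1 lower. Over all tested genes edgeR with the block called 6% higher and 8.27% lower.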
